A study of Mus musculus with 2 samples.

Results

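The replication-dependent histone genes are the protein-coding genes whose GENCODE M21 name begins with Hist and a cluster number from 1 to 4 followed by h, and they were measured here in the mouse erythroid line G1E. The annotation holds 67 such genes, and 64 had a row under the same gene identifier in the deposited gene tables, of 43346 genes in all. Hist1h2bh, Hist1h2bm and Hist2h2bb, all H2B genes by name, had no such row and were not analysed here. By class there were 6 genes for linker histone H1, 18 for H2A, 15 for H2B, 12 for H3 and 13 for H4. By cluster there were 52 genes in Hist1 on chromosome 13, 9 in Hist2 on chromosome 3, 2 in Hist3 on chromosome 11 and 1 in Hist4 on chromosome 6.

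The study profiled total RNA from G1E, an immortalized cell line that the labels give as a male, Gata1- erythroid progenitor from mouse strain C57BL/6J. No treatment and no second line are named, so both libraries form 1 group of 2 biological replicates of the same line. Ribosomal RNA was depleted, 100 ng of RNA entered a ScriptSeq preparation and the size range was 200 to 1000 nt. All 7 listed markers of erythroid progenitors were detected in both libraries, against 1 of 6 markers of other cell types, the lysozyme gene Lyz2 at 1.33 TPM in replicate 2 and 1.34 TPM in replicate 1. The gene tables held 55274351 expected counts in replicate 2 and 58094569 in replicate 1. Fragment lengths implied by the tables averaged 191 nt in replicate 2 and 212 nt in replicate 1.

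Nucleosomes hold DNA around a core of H2A, H2B, H3 and H4, and H1 binds the linker DNA between them. Replication-dependent histone genes lie in clusters, are transcribed mainly in S phase when new DNA has to be packed, and mostly lack introns. Their mRNAs usually end in a conserved stem-loop in place of a poly(A) tail, which the stem-loop binding protein SLBP recognises, so total RNA retains them where a poly(A) selection loses most of them.

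The 3' stem-loop is the sequence that sets these mRNAs apart, and 6 forms of its 16-base core were found after the stop codon in the M21 transcripts of 42 of the 64 genes. The search asked for GGNNNTNTNNANNNCC on the transcript strand with 6 paired bases in the stem and 4 in the loop. In the sequences that follow, from GENCODE M21 on GRCm38, capitals mark the core and lower case the flanking bases, 1 gene standing for each form.
Hist2h2aa1, chr3:96246027-96246052, plus strand: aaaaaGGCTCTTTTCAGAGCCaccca
Hist1h2bk, chr13:22036295-22036320, plus strand: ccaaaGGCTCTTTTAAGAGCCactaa
Hist2h2ac, chr3:96220413-96220438, minus strand: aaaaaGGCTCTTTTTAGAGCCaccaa
Hist1h4d, chr13:23581945-23581970, plus strand: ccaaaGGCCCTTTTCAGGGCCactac
Hist2h4, chr3:96262934-96262959, minus strand: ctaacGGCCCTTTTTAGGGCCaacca
Hist1h4b, chr13:23757361-23757386, plus strand: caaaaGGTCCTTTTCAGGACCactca
The first form was in 24 genes, and together with the second, in 6 genes, it covered H1, H2A, H2B and H3 genes. The third was in Hist2h2ac. All 11 H4 genes with a core carried one of the other 3 forms, which were in 7, 2 and 2 genes and in no gene of another class. The core began between base 22 and base 59 after the stop codon, with a median of 32.5 over the 42 genes. For the other 22 genes these letters were not in the annotated transcript. The models in the deposited tables of 11 genes ended at the coding sequence, among them Hist1h4k, Hist1h2bl, Hist1h2ai and Hist1h3h.

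The stretch before the start site also differed by class. Of the 64 genes, 59 matched a promoter in the RefSeq table (GRCm38.p6), and 250 bases before each start were searched on both strands for 4 short motifs. CCAAT was in 48 of the 59 (81.4%) against 34.5% of 27025 promoters, in 6 of 6 H1, 18 of 18 H2A, 13 of 13 H2B and 8 of 10 H3 genes but in 3 of 12 H4 genes. TATAAA was in 29 (49.2%) against 13.0% of all promoters. ATTTGCAT, the octamer bound by POU factors, was in 11 (18.6%) against 1.61%, 7 of them H2A and 4 H2B genes. GGTCCG was in 10 (16.9%) against 6.82%, namely 9 H4 genes and 1 H3 gene. The H2A and H2B counts are not of separate sequences, since some H2A and H2B genes are neighbours that start close together on opposite strands. In 10 such pairs with both promoters in the table the windows of the partners shared 163 to 248 bases, and CCAAT was in both windows of all 10. With each such pair taken as 1 stretch, CCAAT was in 38 of 49 stretches, TATAAA in 26, ATTTGCAT in 8 and GGTCCG in 10. These stretches still hold repeats. The 150 bases before the start are identical in Hist1h2bq and Hist1h2br, and match in Hist1h4m and Hist1h4n when shifted by 1 base. Hist2h2aa1 and Hist2h2aa2 share long runs there, as do Hist2h3c1 and Hist2h3c2. A match is a description of these letters and not a mapped site. The 150 bases before the start of the H4, H2B and H1 genes with the highest mean TPM show these elements in capitals, and those of the H3 gene Hist2h3c2 show a window with none of the 4 motifs.
Hist1h4d, chr13:23581418-23581567, plus strand: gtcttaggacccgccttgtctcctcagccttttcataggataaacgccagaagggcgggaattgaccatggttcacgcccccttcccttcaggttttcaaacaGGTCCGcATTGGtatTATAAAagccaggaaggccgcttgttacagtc
Hist1h2bk, chr13:22035671-22035820, plus strand: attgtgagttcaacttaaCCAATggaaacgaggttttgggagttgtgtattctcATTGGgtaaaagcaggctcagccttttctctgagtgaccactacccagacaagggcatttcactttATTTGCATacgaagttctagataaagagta
Hist1h1a, chr13:23763518-23763667, plus strand: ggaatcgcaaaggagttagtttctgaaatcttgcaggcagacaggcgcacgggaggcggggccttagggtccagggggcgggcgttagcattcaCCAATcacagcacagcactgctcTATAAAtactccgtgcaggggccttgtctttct
Hist2h3c2, chr3:96239128-96239277, minus strand: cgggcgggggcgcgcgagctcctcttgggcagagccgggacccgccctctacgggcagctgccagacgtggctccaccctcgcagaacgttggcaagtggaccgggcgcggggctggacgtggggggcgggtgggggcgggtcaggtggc
Within this stretch Hist1h4d held the H4-biased motif, then CCAAT read on the other strand, then the TATA motif. Hist1h2bk held CCAAT on both strands and the octamer.

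Most of the genes were expressed, and many at high levels. TPM is the authors' transcript level per effective length, scaled to the same total in each library, and a gene was counted as detected at 1 TPM or more in both libraries. By that measure 57 of the 64 genes (89.1%) were detected, against 38.7% of all 21461 nuclear protein-coding genes. The median over the 64 genes was 139 TPM in replicate 2 and 117 TPM in replicate 1, with an SD of 15.3 (n = 2). Taken over the mean TPM of each gene, the median was 131 TPM, against 0.055 TPM over all nuclear protein-coding genes. At least 100 TPM on average was reached by 37 of the 64 genes, against 257 of the 21461 nuclear protein-coding genes, which include them. Together they summed to 13374 TPM in replicate 2 and 12095 TPM in replicate 1, which was 7.88% of the TPM of nuclear protein-coding genes in replicate 2 and 6.70% in replicate 1. Those genes summed to only 169734 TPM in replicate 2 and 180474 TPM in replicate 1. Of all genes, the 64 held 1.34% of TPM and 1.28% of counts in replicate 2, and 1.21% and 1.02% in replicate 1. In RNA from whole cultures the number of cells in S phase and the histone RNA per cell cannot be told apart.

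**Figure D1:**
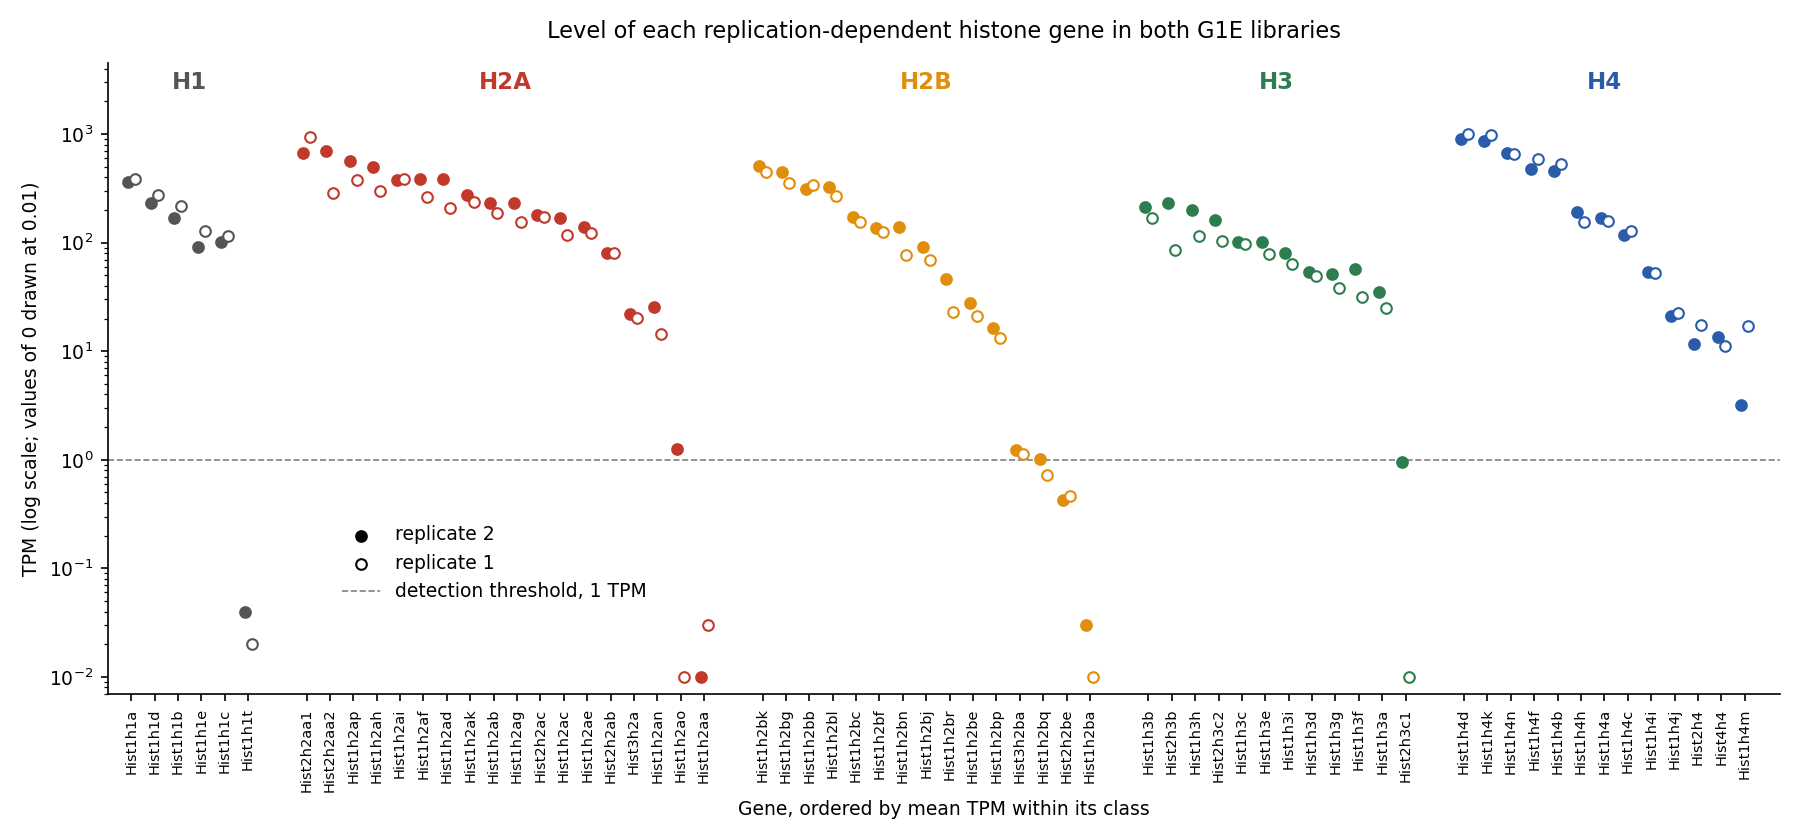
TPM of each of the 64 genes on a log axis, grouped by histone class and ordered by mean TPM within it, with filled points for replicate 2, open points for replicate 1 and a dashed line at the detection threshold of 1 TPM. H4 genes reach the highest levels, at 1009 TPM for Hist1h4d in replicate 1, and 7 genes lie below the line in at least 1 library.

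Of the 7 undetected genes, 3 are known for expression in testis, the linker histone gene Hist1h1t and the divergent neighbours Hist1h2aa and Hist1h2ba. Hist1h1t (chr13:23695814-23696725, plus strand) stood at 0.04 TPM in replicate 2 and 0.02 TPM in replicate 1, from 4 and 2 counts. Hist1h2aa had 0 counts in replicate 2 and 1 in replicate 1, and Hist1h2ba had 1.07 in replicate 2 and 0 in replicate 1. For Hist1h2ba in replicate 1, the 3 counts that a count of 0 allows would be worth 0.102 TPM, and for Hist1h2aa in replicate 2 they would be worth 0.0881 TPM. The other undetected genes had reads but stayed below the threshold in at least 1 library. Hist2h2be, an H2B gene known in the mouse from olfactory neurons, stood at 0.43 TPM in replicate 2 and 0.46 TPM in replicate 1, from 179 and 187 counts over a model of 2620 nt. Hist1h2bq stood at 1.01 TPM in replicate 2 and 0.72 TPM in replicate 1. Hist1h2ao and Hist2h3c1, copies of other members in their coding sequence, stood at 1.27 and 0.96 TPM in replicate 2, and both were listed at 0 TPM in replicate 1.

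Linker histone RNA came from 5 of the 6 H1 genes, all in the Hist1 cluster. Hist1h1a led (chr13:23763666-23764406, plus strand), with 359.7 TPM in replicate 2 and 387 TPM in replicate 1, or 373 ± 19.5 (SD, n = 2). Next came Hist1h1d with 232 TPM in replicate 2 and 275 TPM in replicate 1. Hist1h1b stood at 169.5 TPM in replicate 2 and 217 TPM in replicate 1. The order of these genes was the same in both libraries, and Hist1h1a held 36.0% of H1 TPM. Hist1h1e and Hist1h1c, which followed, changed places between the libraries, with 90.7 and 102 TPM in replicate 2 against 128 and 115 TPM in replicate 1. From the highest to the lowest detected H1 gene the mean TPM differed 3.43-fold, less than in any other class. The 6 genes encode 6 different proteins, which were 53.3% to 87.3% identical in pairwise alignments of their translated coding sequences.

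For H2A, which pairs with H2B in the nucleosome, 16 of 18 genes were detected. The Hist2 genes Hist2h2aa1 (chr3:96245497-96246082, plus strand) and Hist2h2aa2 (chr3:96239749-96240276, minus strand) had the highest means of the class. Hist2h2aa1 stood at 664 TPM in replicate 2 and 950.4 TPM in replicate 1. Hist2h2aa2 stood at 694 TPM in replicate 2 and 285 TPM in replicate 1, so the order of this pair turned between the libraries. Hist1h2ap (chr13:21833026-21833507, minus strand) came next by mean, with 564 TPM in replicate 2 and 381 TPM in replicate 1. The remaining detected Hist1 genes of the class ran from Hist1h2ah, at 503 TPM in replicate 2 and 299 TPM in replicate 1, down to Hist1h2an, at 25.3 TPM in replicate 2 and 14.3 TPM in replicate 1. The 18 genes encode 9 proteins, and 9 of the genes, all in Hist1, encode the same one. That shared protein drew 41.9% ± 1.80 of H2A TPM, and the protein of the Hist2h2aa pair, which differed from it at 4 residues, drew 29.7% ± 3.04 (SD, n = 2). The other Hist2 members were lower. Hist2h2ac stood at 178 TPM in replicate 2 and 171 TPM in replicate 1, and Hist2h2ab at 81.1 TPM in replicate 2 and 80.5 TPM in replicate 1. Hist3h2a, whose model of 2146 nt lies wholly inside the span of Trim17 on the same strand, stood at 22.2 TPM in replicate 2 and 20.1 TPM in replicate 1.

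H2B genes with a row were lower as a class than H2A genes, with 12 of 15 detected. The H2B genes Hist1h2bh, Hist1h2bm and Hist2h2bb had no row and are in none of these values. Hist1h2bk (chr13:22035870-22036345, plus strand) led with 514 TPM in replicate 2 and 446 TPM in replicate 1. Hist1h2bg followed with 451 TPM in replicate 2 and 357 TPM in replicate 1. Hist1h2bb had 313 TPM in replicate 2 and 338 TPM in replicate 1. The next gene was Hist1h2bl, with 328 TPM in replicate 2 and 271 TPM in replicate 1, so that it stood above Hist1h2bb in replicate 2 and below it in replicate 1. Hist1h2bk, Hist1h2bg and Hist1h2bb held 58.5% of H2B TPM, and the detected genes spanned 409-fold down to Hist3h2ba, at 1.23 TPM in replicate 2 and 1.12 TPM in replicate 1. The class encodes 8 proteins, the most shared of which came from 6 genes and drew 31.5% ± 2.35 of H2B TPM (SD, n = 2). A second protein, 1 residue different, came from Hist1h2bg, Hist1h2bc and Hist1h2be and drew 28.6% ± 0.673.

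H3 RNA, which supplies the partner of H4 in the nucleosome core, had the narrowest span among detected genes of the core histones. It was 6.44-fold, with 11 of 12 genes detected. The 3 highest H3 genes held 47.4% of H3 TPM, against 40.1% of H2A TPM for the 3 highest H2A genes. Hist1h3b (chr13:23752267-23752886, plus strand) had the highest mean, from 215 TPM in replicate 2 and 170.1 TPM in replicate 1. Hist2h3b (chr3:96268654-96269141, plus strand) stood at 233 TPM in replicate 2 and 86.0 TPM in replicate 1, the widest difference between the libraries in this class among genes with counts in both. Hist1h3h stood at 198 TPM in replicate 2 and 116 TPM in replicate 1. Among the rest of Hist2, Hist2h3c2 stood at 163 TPM in replicate 2 and 103 TPM in replicate 1. The other detected H3 genes ran from Hist1h3c, at 100.4 TPM in replicate 2 and 96.7 TPM in replicate 1, down to Hist1h3a, at 34.8 TPM in replicate 2 and 25.1 TPM in replicate 1. The 12 genes encode 2 proteins that differ at 1 residue. The protein shared by 8 genes drew 71.7% ± 0.0348 of H3 TPM (SD, n = 2) and the protein of Hist1h3h, Hist1h3i, Hist1h3g and Hist1h3a drew 28.3%, and these shares differed between the libraries by far less than the H3 sum did.

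H4 was encoded by 13 genes with 1 and the same protein, and all 13 were detected. Hist1h4d (chr13:23581598-23582735, plus strand) stood at 912 TPM in replicate 2 and 1009 TPM in replicate 1, the highest mean of the 64 genes. Hist1h4k (chr13:21750194-21750505, minus strand) had 860.1 TPM in replicate 2 and 988 TPM in replicate 1. Hist1h4n had 668 TPM in replicate 2 and 656 TPM in replicate 1. The RNA was unequally divided, since Hist1h4d, Hist1h4k and Hist1h4n held 61.4% of H4 TPM. The detected genes spanned 94.0-fold in mean TPM, but the span was 282-fold in replicate 2 and 89.9-fold in replicate 1, because Hist1h4m, whose counts are uncertain, is the lowest in replicate 2. Without Hist1h4m the means spanned 77.2-fold. Hist1h4f followed with 477 TPM in replicate 2 and 588 TPM in replicate 1, and Hist1h4b with 461 TPM in replicate 2 and 527 TPM in replicate 1. The next below was Hist1h4h, at 191 TPM in replicate 2 and 154 TPM in replicate 1, which left a gap under Hist1h4b in both libraries. At the low end Hist1h4m stood at 3.23 TPM in replicate 2 and 17.2 TPM in replicate 1. Outside Hist1, Hist2h4 (chr3:96261682-96263311, minus strand) had 11.6 TPM in replicate 2 and 17.4 TPM in replicate 1. Hist4h4 (chr6:136801553-136804415, minus strand), the only gene of its cluster, had 13.7 TPM in replicate 2 and 11.2 TPM in replicate 1.

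Gene models bear on these orders, since TPM divides by an effective length. The model of Hist1h4k held 312 nt, all coding, with an effective length of 126 nt in replicate 2 and 107 nt in replicate 1. The model of Hist4h4 held 2879 nt, of which 312 are coding. Expected counts per coding base divide the counts of the whole model by its coding length, so they favour models with much untranslated sequence. By expected counts per coding base Hist1h4d kept rank 1 of the H4 genes, while Hist1h4k had rank 3 in place of rank 2 and Hist4h4 had rank 8 in place of rank 12. Hist2h3c2 took rank 1 of the H3 genes by counts per coding base, with 22989 counts in replicate 2 and 14099 in replicate 1, and rank 4 by TPM. The first places of H1, H2A and H2B did not change, with Hist1h1a, Hist2h2aa1 and Hist1h2bk.

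Summed by class, H2A and H4 RNA were above H2B, H3 and H1 RNA in both libraries. The H2A genes summed to 4935 TPM in replicate 2 and 3883 TPM in replicate 1. The H4 genes summed to 3957 TPM in replicate 2 and 4330.02 TPM in replicate 1, so the order of H2A and H4 turned between the libraries. H2B reached 2237 TPM in replicate 2 and 1899.9 TPM in replicate 1. H3 reached 1291 TPM in replicate 2 and 859 TPM in replicate 1, and H1 reached 955 TPM in replicate 2 and 1123 TPM in replicate 1, again with the order turned. As shares of the whole, H2A held 34.5% ± 3.39, H4 32.7% ± 4.39, H2B 16.2% ± 0.72, H3 8.37% ± 1.80 and H1 8.21% ± 1.52 (SD, n = 2). The nucleosome core holds its histones in equal amounts, and the RNA sums were unequal. The H2A sum was 2.21 times the H2B sum in replicate 2 and 2.04 times in replicate 1. All H2B sums and shares leave out Hist1h2bh, Hist1h2bm and Hist2h2bb, whose levels are not known here. The H3 sum was 0.326 of the H4 sum in replicate 2 and 0.198 in replicate 1.

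**Figure D2:**
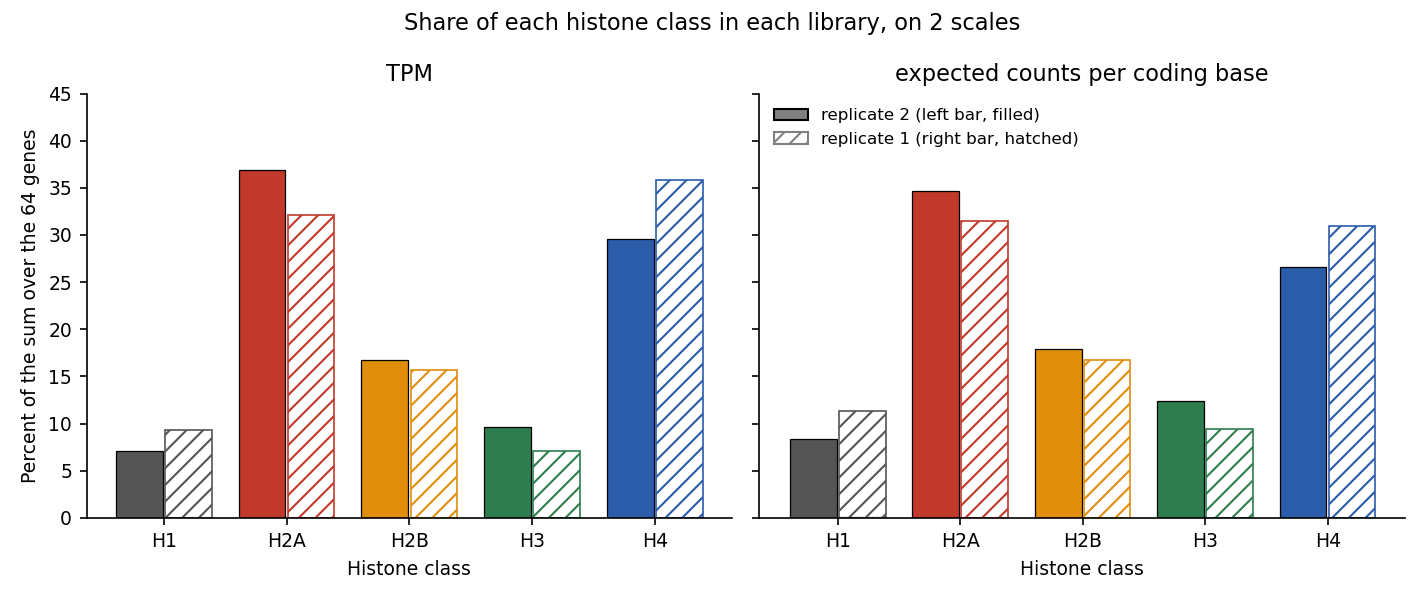
Percent of the sum over the 64 genes held by each histone class, from TPM on the left and from expected counts per coding base on the right, with replicate 2 as filled bars and replicate 1 as hatched bars. H2A and H4 are above H2B, H3 and H1 on both scales, and the bars of H3 are 9.65% in replicate 2 and 7.10% in replicate 1 in TPM, and 12.4% in replicate 2 and 9.45% in replicate 1 per coding base.

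The gaps between H2A and H2B and between H3 and H4 were narrower when counts were divided by coding length alone. On that scale, which was added after the values had been seen, H2A held 33.1% ± 2.25, H4 28.8% ± 3.08, H2B 17.3% ± 0.862, H3 10.9% ± 2.08 and H1 9.84% ± 2.11 (SD, n = 2). H2A was then above H4 in both libraries. The H3 sum was 0.465 of the H4 sum in replicate 2 and 0.305 in replicate 1, and the H2A sum was 1.93 times the H2B sum in replicate 2 and 1.88 times in replicate 1. Outside the rule on protein-coding genes lay Hist1h2al, which M21 gives as a processed pseudogene and which stood at 686 TPM in replicate 2 and 701 TPM in replicate 1. Its mean lay between those of Hist2h2aa1 and Hist2h2aa2, and it is in none of these sums.

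By cluster, Hist1 held 85.1% ± 0.815 of the TPM of the 64 genes and Hist2 held 14.6% ± 0.809 (SD, n = 2). Hist3 held 0.175% and Hist4 0.0975% ± 0.00663. Counted per coding base, Hist2 held 19.0% ± 0.236 and Hist3 and Hist4 held 1.10% each. The models of Hist3h2a, Hist3h2ba and Hist4h4 are 2146, 614 and 2879 nt long, of which 393, 381 and 312 nt are coding. Within Hist1, gaps of over 100 kb set apart 4 blocks. The largest, with 28 genes at chr13:23531050-23764406, held 47.2% ± 1.77 of the total and all H1 genes except Hist1h1b. The block of 17 genes at chr13:21715763-21837530 held 28.5% ± 0.441, and the 5 genes at chr13:22035164-22043676 held 9.45% ± 1.39. The remaining block is the testis pair Hist1h2aa and Hist1h2ba at chr13:23933773-23934851, of which 0 of 2 genes were detected. In Hist2 the H2A genes led, with a sum of 1618 TPM in replicate 2 and 1487 TPM in replicate 1. Its H3 genes summed to 397 TPM in replicate 2 and 189 TPM in replicate 1.

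Divergent neighbours lay close together but often differed in level. Head-to-head pairs were neighbouring members on opposite strands with start sites within 1000 bases, and there were 12, each of 1 H2A and 1 H2B gene, 176 to 306 bases apart with a median of 259.5. In 9 pairs both genes were detected. The same partner was higher in both libraries in all 9 of these, H2A in 6 and H2B in 3. The fold between the partners, averaged over the libraries, ran from 1.17 to 14.4 with a median of 2.25, and 4 pairs lay within 2-fold. Hist1h2ac and Hist1h2bc were closest in TPM, at 170.4 and 173 TPM in replicate 2 and at 118 and 157 TPM in replicate 1. Hist1h2ap and Hist1h2br were farthest apart of the 9, at 564 and 45.8 TPM in replicate 2 and at 381 and 23.1 TPM in replicate 1. The Hist1h2br model was 1256 nt long, against 482 nt for Hist1h2ap. Farther still were the Hist2 neighbours Hist2h2ac and Hist2h2be, of which Hist2h2be was not detected. Hist2h2ac was 414 times its partner in replicate 2 and 372 times in replicate 1. These folds depend on the gene models, as partners differ in model length. By expected counts per coding base, added after the values had been seen, the median over the 9 pairs was 2.35 with a range from 1.21 to 3.70, and 3 pairs lay within 2-fold. On that scale the same partner was higher in both libraries in 8 of 9 pairs, and by mean H2A was higher in 5 and H2B in 4. The exception was Hist1h2an and Hist1h2bp, which were then closest. Hist1h2ac and Hist1h2bc differed 2.00-fold in replicate 2 and 2.71-fold in replicate 1, with Hist1h2bc higher. Hist1h2ap was 3.26 times Hist1h2br in replicate 2 and 4.14 times in replicate 1, still the widest of the 9. Hist2h2ac was 54.4 times Hist2h2be in replicate 2 and 46.5 times in replicate 1.

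**Figure D3:**
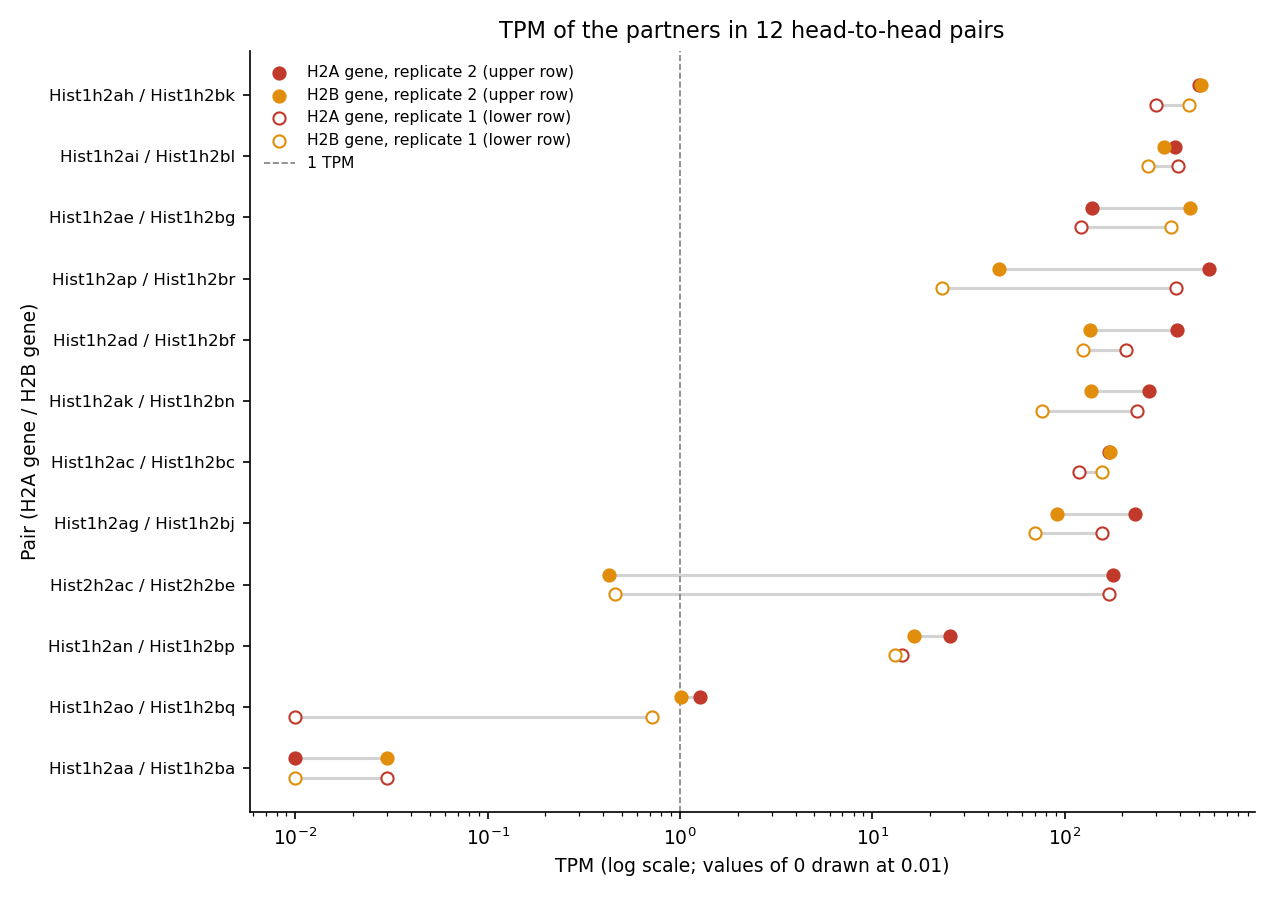
TPM on a log axis of the H2A and H2B gene of each of the 12 head-to-head pairs, joined by a line, with replicate 2 as filled points in the upper row and replicate 1 as open points in the lower row of a pair. The lines of 9 pairs lie wholly above 1 TPM, and the Hist2h2ac and Hist2h2be line is the longest of those with reads in all 4 values.

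Several members are copies whose coding sequences cannot tell their reads apart. Hist2h2aa1 and Hist2h2aa2 had 0 base differences over 393 coding bases, as had Hist1h2ao and Hist1h2ap. Hist1h4m and Hist1h4n had 0 differences over 312 bases and Hist2h3c1 and Hist2h3c2 had 0 over 411, while Hist2h3b differed from Hist2h3c2 at 1 base. The authors' tables give a posterior SD of each count, the uncertainty left when reads that fit several genes are divided. It exceeded 0.05 of the posterior mean in either library for 5 of the 64 genes, namely Hist1h2bq, Hist1h2ao, Hist1h4m, Hist1h2ba and Hist2h3c1. Among detected genes that was 1 of 57, Hist1h4m, against 0.566% of detected nuclear protein-coding genes.

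For the Hist2h2aa and the Hist1h4 copies the sums differed less between the libraries than the copies did. The Hist2h2aa pair summed to 1358 TPM in replicate 2 and 1236 TPM in replicate 1, while Hist2h2aa1 and Hist2h2aa2 moved in opposite directions. The relative posterior SD of Hist2h2aa1 was 0.00984 in replicate 2 and 0.00933 in replicate 1, and that of Hist2h2aa2 was 0.0112 in replicate 2 and 0.0372 in replicate 1. Hist1h4m and Hist1h4n summed to 671 TPM in replicate 2 and 673 TPM in replicate 1, although Hist1h4m alone had 116 counts in replicate 2 and 555 in replicate 1. The Hist2h3 genes did not even out, with 35037 counts in replicate 2 and 18108 in replicate 1. Within Hist1h2be the 2408 nt transcript held 81.5% of the gene in replicate 2 and 6.91% in replicate 1, and the 2433 nt transcript held 15.8% in replicate 2 and 90.7% in replicate 1. The gene itself had 27.6 TPM in replicate 2 and 20.9 TPM in replicate 1. Hist2h2aa1, Hist2h2aa2, Hist2h3b and Hist1h4b also lie within annotated antisense genes. In all, 20 of the 64 genes overlap a gene on the other strand, most of them only an annotated miRNA gene. The sources used here do not say which strand was counted, so such reads cannot be told apart. On the same strand, the spans of Hist1h2be and Hist1h1e overlap by 496 nt, and the pseudogene Gm11398 overlaps each by 320 nt. Gm20634, annotated as a processed transcript, overlaps Hist2h2aa1 by 529 nt and Hist2h3c1 by 1825 nt on their strand. The rRNA gene Gm24991 likewise overlaps Hist1h2ac by 108 nt.

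**Figure D4:**
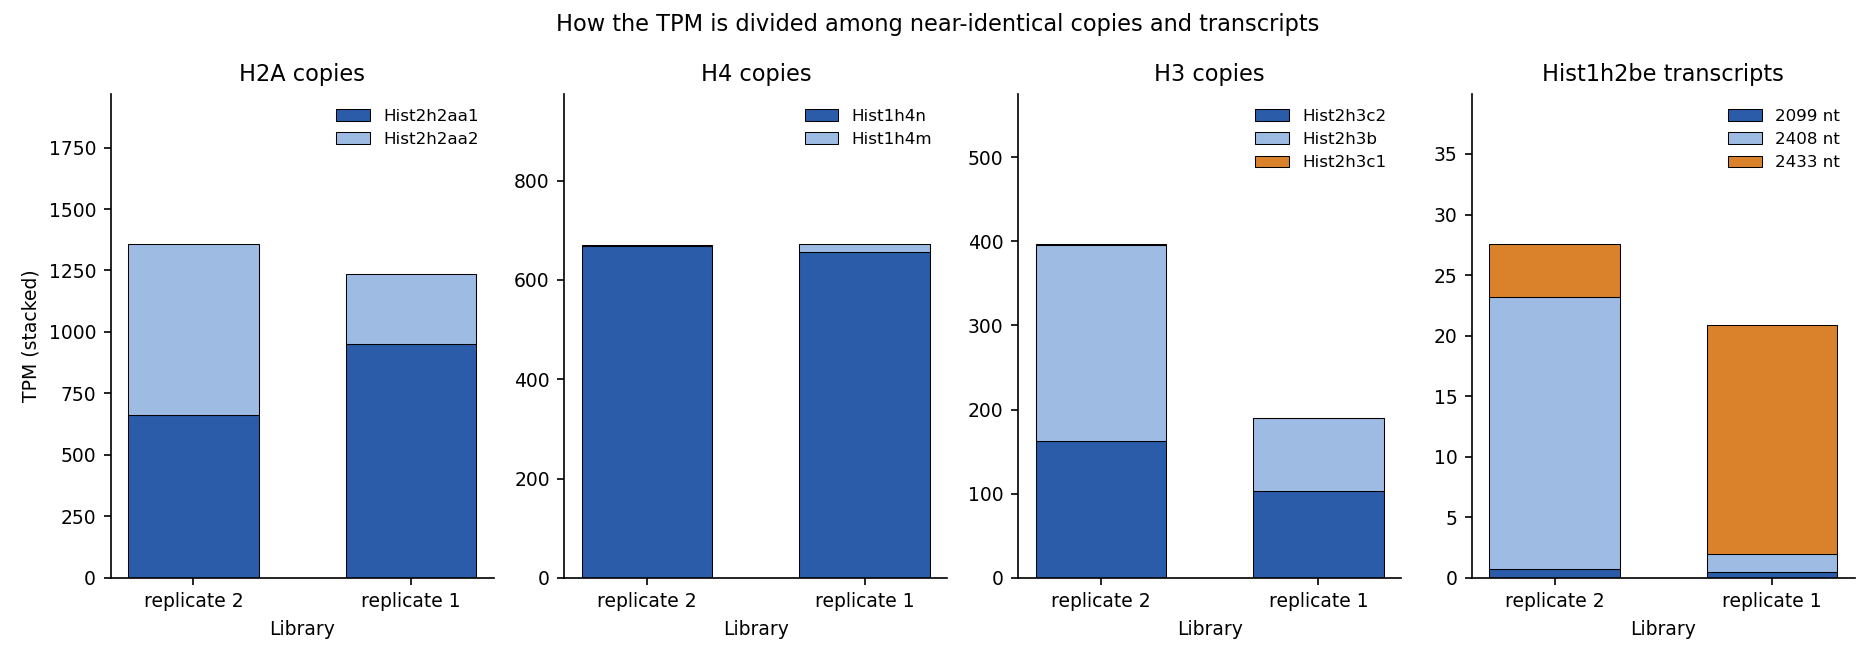
Stacked TPM in replicate 2 and replicate 1 of the Hist2h2aa genes, of Hist1h4n and Hist1h4m, of the Hist2h3 genes and of the 3 transcripts of Hist1h2be, each panel with its own axis. The stacks of the Hist2h2aa pair (1358 and 1236 TPM) and of the Hist1h4 pair (671 and 673 TPM) have near-equal heights with shifted parts, and the Hist2h3 stack is 397 TPM in replicate 2 and 189 TPM in replicate 1.

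Between the libraries most histone genes stood higher in replicate 2, with class medians of the ratio from 0.990 to 1.75. The ratio used expected counts scaled by TMM, with 1 library on each side, so it compares 2 libraries and has a counting interval but no test. Of the 61 histone genes that had 10 or more counts in both libraries together, 28 were at least 1.5-fold higher in replicate 2, against 8.16% of 14079 nuclear protein-coding genes. One gene, Hist1h4m, was at least 1.5-fold lower, against 16.5% of those genes. Both shares of the 14079 include genes with few counts, whereas 60 of the 61 histone genes had at least 100. Among other nuclear protein-coding genes with at least 1000 counts, 0.937% of 2242 were at least 1.5-fold higher at 50% to 55% GC. From 65% GC upward 16.8% of 95 were. The median ratio was 1.40 over the 61 genes and 1.01 over the 14079. It was 1.75 for H2A with 10 of 17 genes past 1.5-fold, 1.67 for H3 with 10 of 12 and 1.51 for H2B with 7 of 14. It was 1.14 for H4 with 1 of 13 higher, and 0.990 for H1 with 0 of 5. With the ratio of TPM relative to the median of detected genes in place of scaled counts, 18 of the 61 were past 1.5-fold higher. That ratio is relative to a median log2 shift of -0.14 among detected nuclear protein-coding genes. Among genes with counts in both libraries, its median log2 value was 0.562 for H2A, 0.573 for H3 and 0.437 for H2B. It was 0.0037 for H4, with 7 of 13 genes above 0 and 6 below, and -0.107 for H1. By the TPM ratio 50 of the 61 histone genes were above 0, against 6540 of the 14079 nuclear protein-coding genes. The share of the 14079 past 1.5-fold by that ratio is not given here.

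The ratios of genes with counts in both libraries ran from 0.234 to 3.29. Hist2h3b had 11783 counts in replicate 2 and 4010 in replicate 1, a ratio of 3.29 with a 95% counting interval of 3.17 to 3.41. Its coding sequence differs from that of Hist2h3c2 at 1 base, and the Hist2h3 genes together had a ratio of 2.17. Hist2h2aa2 had a ratio of 2.93, but it and Hist2h2aa1 are identical in coding sequence and had a ratio of 1.26 as a pair, so the fold of either is uncertain. Hist1h2br followed with 2.29. Hist2h3c1 and Hist1h2ao, with 265 and 62.7 counts in replicate 2 and 0 in replicate 1, are also among the 28, but their identical copies make any fold uncertain. The same holds at the other end for Hist1h4m, whose ratio was 0.234 (0.190 to 0.286). Its relative posterior SD was 0.281 in replicate 2 and 0.317 in replicate 1, and with its identical copy Hist1h4n it had a ratio of 1.24. Hist2h4 had a ratio of 0.764 (0.728 to 0.801) and the linker gene Hist1h1e of 0.829 (0.806 to 0.852). These intervals cover counting error only and leave out the uncertainty of dividing reads among copies.

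Base composition and length moved with the same ratio. The median GC content of the coding sequence was 69.4% in H2A, 67.4% in H3, 65.7% in H4, 63.2% in H2B and 59.6% in H1 genes. Among other nuclear protein-coding genes with at least 1000 counts the median ratio was 0.951 below 45% GC, 1.05 from 50% to 55%, 1.16 from 60% to 65% and 1.22 from 65% upward. In the last of these ranges 16.8% of 95 other genes were at least 1.5-fold higher in replicate 2, and so were 19 of the 33 histone genes, which were held to 10 counts in place of 1000. From 60% to 65% GC the values were 5.58% of 538 other genes and 7 of 23 histone genes. Other genes with models under 600 nt had a median ratio of 1.17, against 1.00 for those of 2000 nt or more. The part of GC content, fragment length and gene length in the differences between the histone classes was not tested.

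**Figure D5:**
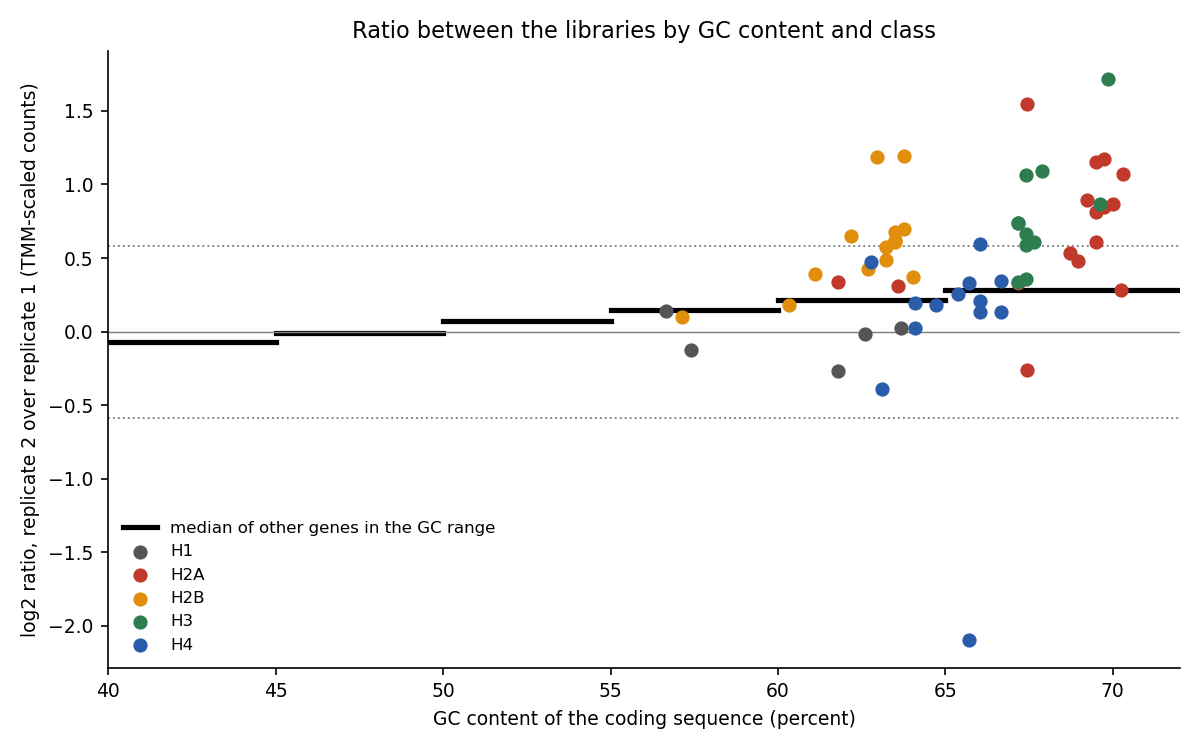
Log2 ratio of TMM-scaled expected counts, replicate 2 over replicate 1, against the GC content of the coding sequence for the histone genes with 10 or more counts in all and some in each library, coloured by class. Black bars are medians of other nuclear protein-coding genes with at least 1000 counts in each GC range and dotted lines mark 1.5-fold. Most H2A and H3 points lie above the bar from 65% GC upward, which is at 0.28, and all 5 H1 points and most H4 points lie under the bar of their range.

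Genes for the machinery that makes histone mRNA had lower TPM than most of the histone genes. Of 25 genes for histone gene transcription and for processing, export and decay of the mRNA, 22 were detected. The median over all 25 was 9.23 TPM in replicate 2 and 9.44 TPM in replicate 1. Slbp, the stem-loop binding protein, led with 65.5 TPM in replicate 2 and 71.9 TPM in replicate 1. Cpsf2, a subunit of the cleavage complex, had 25.1 TPM in replicate 2 and 28.1 TPM in replicate 1. The cap-binding gene Ncbp1 had 22.7 TPM in replicate 2 and 22.2 TPM in replicate 1. Srrt, a partner of the cap-binding complex, stood at 16.2 TPM in replicate 2 and 18.8 TPM in replicate 1, and Cpsf3, the endonuclease that cuts histone pre-mRNA, at 16.2 TPM in replicate 2 and 18.7 TPM in replicate 1. Lsm11 and Zfp473 had under 1 TPM, and the U7 snRNA gene Rnu7 was listed at 0 in both libraries. The preparation had a set size range, and a small nuclear RNA can fall below it. The 0 of Rnu7 therefore cannot show whether it was expressed. None of the 24 genes of this list with at least 10 counts was past 1.5-fold between the libraries, and their median ratio was 1.04. Over all nuclear protein-coding genes with at least 10 counts, 8.16% were past it higher and 16.5% lower, shares that include genes with few counts.

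Chaperones of new histones were all detected. The median over the 17 genes was 22.1 ± 1.87 TPM, led by Rbbp7 with 95.2 TPM in replicate 2 and 114 TPM in replicate 1. The H3-H4 chaperone Nasp had 54.6 TPM in replicate 2 and 60.2 TPM in replicate 1. Ssrp1 of the FACT complex had 52.8 TPM in replicate 2 and 58.4 TPM in replicate 1. These levels were below the class leaders of the histone genes. The acetyltransferase Hat1 had 45.3 TPM in replicate 2 and 55.1 TPM in replicate 1, and the H2A-H2B chaperone Nap1l1 had 41.3 TPM in replicate 2 and 56.9 TPM in replicate 1. Of these chaperone genes, 0 of 17 were past 1.5-fold, with a median ratio of 1.02, beside the same 8.16% and 16.5% of nuclear protein-coding genes. Those shares include genes with few counts, whereas each of the 17 had at least 1000 in each library.

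Genes listed here as replication-independent encode variants of H1, H2A and H3. Of 11 genes, 8 were detected, and the list summed to 1336 TPM in replicate 2 and 1495.5 TPM in replicate 1. The H2A variant gene H2afz had 652 TPM in replicate 2 and 658 TPM in replicate 1, a level between those of Hist2h2aa1 and Hist2h2aa2 by mean. The H3 variant genes H3f3a and H3f3b had 436 and 129 TPM in replicate 2 and 581 and 133 TPM in replicate 1. Each H3f3a value exceeded that of any single replication-dependent H3 gene in the same library. H2afx had 43.7 TPM in replicate 2 and 44.5 TPM in replicate 1, and H2afy had 30.7 TPM in replicate 2 and 36.6 TPM in replicate 1. H1f0, H1fx and H2afy2 were under 1 TPM in both libraries.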

How the data were processed

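Total RNA of 2 G1E libraries was analysed from the authors' gene and transcript tables. The deposited expected counts are estimated counts of reads per gene, with reads that fit several genes divided among them, per the file headers. The deposited TPM and FPKM values divide these by an effective length, and only TPM was used. The authors' posterior SD, gene length, effective length and TPM interval, not a coverage signal, and the percent of a gene in each transcript were read per the file headers. The read-me texts deposited with the tables name mm10 and GENCODE M4, and the sources used here name no aligner or quantifier. Names, types and coordinates came from GENCODE M21 (GRCm38), matched on gene identifiers.

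Ratios were taken after rounding the expected counts, using TMM factors from edgeR 4.0.16 (R 4.3.3) and an exact Clopper-Pearson interval at 95%. DESeq2 1.42.0 size factors were an alternative. The ratio step was tested on simulated data. Other steps used Python 3.11.15, numpy 2.4.6, scipy 1.17.1, pandas 2.3.3, biopython 1.88 and matplotlib 3.10.9. Proteins were compared by translating M21 coding sequences; RefSeq proteins had been planned and were not used here.

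The members and gene lists were chosen with earlier results of these data known. Named genes were the 3 highest and the lowest of each class, all members of Hist2, Hist3 and Hist4, members under 1 TPM, the 3 largest ratios in each direction, members with uncertain counts and the 5 highest of each list. Further members were named to complete a class, pair or protein and were chosen after their values were seen. The group had 2 libraries, so SDs rest on n = 2 and no p-value was computed.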

Additional observations from a re-analysis of the deposited data

How the results depend on the processing

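The count of detected members ran from 55 to 59 over 7 alternatives, among them each library alone. The median of 131 TPM was 748 when TPM was rescaled to nuclear protein-coding genes and 157 over detected members only. With counts in place of TPM, H1 held 16.3%, H3 11.4% and H4 22.7%, and Hist1, Hist2, Hist3 and Hist4 held 79.1%, 18.9%, 1.09% and 0.871%. Counts per coding base, added after the data were seen, gave 9.84% for H1, 17.3% for H2B and 10.9% for H3, with 78.8%, 19.0%, 1.10% and 1.10% for the clusters. The share of Hist3, whose libraries differed by almost nothing, was 0.175% with posterior mean TPM and without members of uncertain counts. Of the 28 members higher in replicate 2, 27 were called with DESeq2 size factors, 18 with TPM ratios and 11 at 2-fold, and 4 of 22 proteins were higher when TPM was summed over identical proteins, an alternative added after the data were seen. The 1 lower member became 0 in that sum and without members of uncertain counts. For these alternatives the share of all nuclear protein-coding genes past the same limit is not given here. Genes with uncertain counts numbered 11 at a limit of 0.02 in place of 0.05. Models with or without untranslated sequence limit TPM comparisons between members. No paired analysis was possible because the design has 1 group.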
